A study of Mus musculus with 52 samples.

Results

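Broad H3K4me3 domains are wide, unbroken stretches of nucleosomes whose histone H3 is trimethylated at lysine 4. Here the domains were chosen by their width in the dark sample: a domain was an interval of at least 3000 bp in its H3K4me3 peak list that overlapped an interval of the light sample by at least 1 bp. Of the 30410 dark intervals, 2020 met this rule (6.64%), and together they held 21.1% of the bases in the list. Every dark interval of at least 3000 bp overlapped the light list, so the overlap removed none.

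The tissue was the suprachiasmatic nucleus (SCN), the paired hypothalamic nuclei that hold the circadian pacemaker, from male wild-type mice aged 11 to 12 weeks. For the chromatin immunoprecipitation, 1 sample came from mice in darkness and 1 from mice given 1 h of light, each a pool of 2 pairs of SCN. RNA-seq came from 2 experiments in which each library pooled 6 pairs of SCN. In the Npas4 experiment, wild-type littermates were kept in darkness or given 1 h of light from circadian time (CT) 17, with 3 libraries each, and Npas4-/- mice were treated likewise. In the light-pulse experiment, wild-type mice were collected in darkness at CT17 (4 libraries) or CT23 (2 libraries), or after light that began at CT17. The light lasted 0.5 h in 4 libraries, and 1 h, 3 h or 6 h in 2 libraries per duration.

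Trimethylation of H3 lysine 4 is deposited at active start sites by the SET1 and MLL methyltransferase complexes, which are drawn to unmethylated CpG-rich DNA. At most promoters the mark covers a few nucleosomes on either side of the start. A small set of genes carries a far wider stretch, and such stretches are known to sit at genes that define a cell's identity, among them developmental transcription factors of the lineage. H3K27ac, the acetylation of H3 lysine 27, marks active promoters and enhancers.

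The upstream sequence of 6 genes is printed to show what domain promoters look like beside promoters without a domain. Lhx1 (chr11:84525535-84525734, minus strand) and Six6 (chr12:72939682-72939881, plus strand) encode SCN transcription factors and lay in the sixth and fourteenth widest domains. Fos (chr12:85473690-85473889, plus strand) and Fosl2 (chr5:32136272-32136471, plus strand) encode light-induced AP-1 subunits and also lay in domains. Vip (chr10:5639018-5639217, plus strand) and Avp (chr2:130582589-130582788, minus strand) encode the principal SCN neuropeptides, and their start sites lay in no dark H3K4me3 interval. Each line gives the 200 bases that end just before the start site, 5′ to 3′ on the gene's strand, from RefSeq's GRCm38.p6 table, and the capitals mark CpG dinucleotides.
Lhx1: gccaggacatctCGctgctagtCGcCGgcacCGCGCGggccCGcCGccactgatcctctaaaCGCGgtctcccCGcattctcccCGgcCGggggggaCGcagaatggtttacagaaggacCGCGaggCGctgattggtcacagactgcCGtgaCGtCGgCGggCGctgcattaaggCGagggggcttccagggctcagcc
Six6: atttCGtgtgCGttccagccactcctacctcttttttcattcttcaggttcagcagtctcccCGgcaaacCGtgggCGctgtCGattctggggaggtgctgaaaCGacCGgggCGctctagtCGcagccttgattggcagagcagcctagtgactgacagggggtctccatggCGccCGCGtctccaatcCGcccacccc
Fos: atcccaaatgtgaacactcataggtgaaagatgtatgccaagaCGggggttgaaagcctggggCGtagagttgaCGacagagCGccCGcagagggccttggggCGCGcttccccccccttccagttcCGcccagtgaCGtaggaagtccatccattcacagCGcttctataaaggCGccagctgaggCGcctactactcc
Fosl2: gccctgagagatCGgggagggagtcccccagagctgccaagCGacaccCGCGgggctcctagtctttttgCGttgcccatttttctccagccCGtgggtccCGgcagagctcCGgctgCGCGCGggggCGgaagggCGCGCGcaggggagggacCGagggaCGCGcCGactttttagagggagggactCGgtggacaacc
Vip: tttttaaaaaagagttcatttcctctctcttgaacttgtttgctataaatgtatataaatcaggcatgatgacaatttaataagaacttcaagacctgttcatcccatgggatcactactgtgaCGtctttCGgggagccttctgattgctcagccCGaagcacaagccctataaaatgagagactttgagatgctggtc
Avp: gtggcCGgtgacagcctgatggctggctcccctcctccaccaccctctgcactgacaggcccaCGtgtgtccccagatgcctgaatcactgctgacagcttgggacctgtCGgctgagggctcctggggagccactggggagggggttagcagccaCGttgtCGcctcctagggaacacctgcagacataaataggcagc
The printed stretch held 23 CpG in Lhx1, 14 in Six6, 12 in Fos and 20 in Fosl2. It held 3 CpG in Vip and 5 in Avp.

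The same contrast held over all promoters in that table, each taken as 300 bases (250 before and 50 after the start). The median promoter held 25 CpG in domains, 21 in dark intervals under 3000 bp and 3 where no interval covered the start. The median ratio of observed to expected CpG was 0.814, 0.764 and 0.191 in the same order. The letters GGGCGG, the core of an Sp/KLF site, were found on either strand in 70% of domain promoters, 67.5% of promoters in narrower intervals and 46.2% of all promoters. TATAAA was found in 5.84% of domain promoters, 6.16% of promoters in narrower intervals and 12.6% of all. The E-box CACGTG was found in 8.86% of domain promoters, 10.4% of promoters in narrower intervals and 7.84% of all. The cyclic AMP response element TGACGTCA was found in 2.82%, 3.38% and 2.23% in the same order. None of these 4 motifs contains another. The gap in CpG was thus large between marked and unmarked promoters and small between broad and narrower intervals.

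The domains had a median width of 3579.5 bp, an upper quartile of 4200.8 bp and a maximum of 12158 bp. At the threshold, E2f3 and Flot1 lay just inside at 3000 bp, and Hexim1 and Prickle2 just outside at 2998 bp. A start site of an annotated gene lay in 1853 domains (91.7%), 163 overlapped a gene away from its start, and 4 touched no gene. The start sites belonged to 2584 genes, of which 2022 were protein coding, 425 were long non-coding RNA genes and 50 were miRNA genes. For 637 of the 2584 the strand was not known, so either gene end counted as a start. The 2022 were 9.24% of the 21887 protein-coding genes. In 1193 domains the start sites of protein-coding genes belonged to a single gene of known strand. Where several of its start sites lay in the domain, the most upstream was taken, which favours a longer downstream reach. From that site the domain reached a median of 931 bp upstream and 2652 bp downstream. It reached farther downstream in 93.3% of them, against 91.4% for intervals of 1000 to 3000 bp. Protein-coding genes with a domain were long, with a median of 35.5 kb against 24 kb for genes in narrower intervals and 8.14 kb for genes in none.

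The widest domains lay over regulators of neural identity, of chromatin and of cell adhesion. Tnrc18, which encodes a chromatin-associated protein, had the widest at 12158 bp in dark. Its mark was split into 3 light intervals, the widest of 5984 bp, which together spanned 13244 bp. Setd1b, a subunit of the SET1 complex that itself writes H3K4me3, followed with 10461 bp in dark and 10316 bp in light. Irs2, an adaptor of the insulin receptor, had 10436 bp in dark and 9669 bp in light. Kmt2e, a member of the MLL family, stood nineteenth with 7974 bp in dark. In light it was broken into 2 intervals, the wider of 3918 bp, which together spanned 7840 bp.

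Transcription factors of the neural plate and ventral forebrain made up much of the rest of the top 20. Sox2, a neural progenitor factor, measured 10371 bp in dark and 9965 bp in light. Zic2 measured 9813 bp in dark and 10240 bp in light, so it was among the few wider in light. Lhx1, a LIM-homeodomain factor needed for synchrony among SCN neurons, measured 9762 bp in dark and 9432 bp in light. Sox1 measured 8902 bp in dark and 8152 bp in light. Six6, an eye and hypothalamus factor, measured 8369 bp in dark and 8003 bp in light. Dlx6, a factor of GABAergic neurons, measured 8105 bp in dark, and in light its widest piece was 5069 bp within a span of 7864 bp. Nfib measured 7865 bp in dark and was broken into 4 light intervals, the widest of 3478 bp within a span of 7171 bp. Zfp608 measured 8588 bp in dark and 8039 bp in light.

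A group of adhesion genes, the non-clustered delta protocadherins, also stood near the top. Pcdh7 had 9267 bp, Pcdh10 8891 bp, Pcdh9 8677 bp and Pcdh17 8284 bp in dark. Of 9 such genes, 7 had a start site in a domain. Against 9.24% of all protein-coding genes, other families ranged widely. A domain was found at 4 of 6 Dlx, 3 of 4 nuclear factor I, 2 of 3 Zfhx and 8 of 19 Sox genes, at Six3 and Six6 among 6 genes of their family, at 1 of 6 Irx and 1 of 4 POU class 3 genes, and at none of 39 Hox genes. These families were picked after the domains had been seen. Several long non-coding RNA genes were among the widest 20, namely C130071C03Rik (8983 bp), Six3os1 (8365 bp) and Sox1ot (8179 bp).

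**Figure D1:**
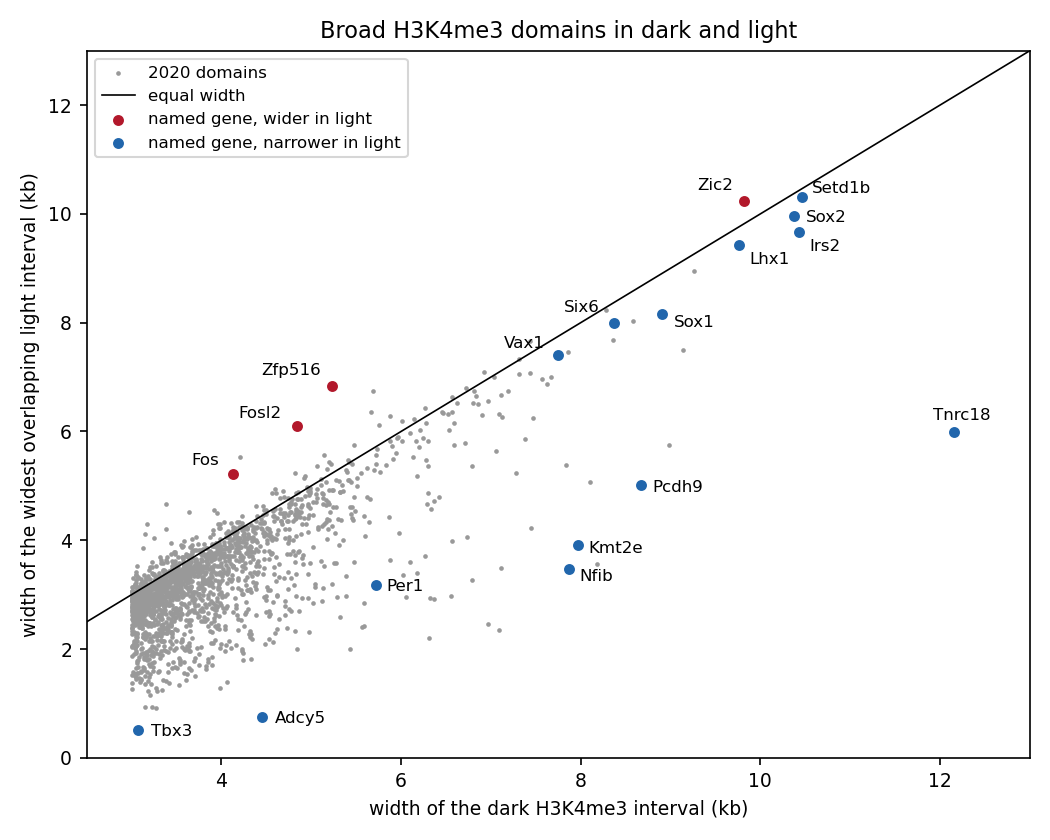
Width of each broad domain in the dark H3K4me3 list (x axis, kb) against the widest light interval that overlaps it (y axis, kb). Each grey point is 1 of 2020 domains, the line marks equal width, and coloured points are named genes. Most points lie below the line, Tnrc18 is widest in dark, and Fos, Fosl2, Zfp516 and Zic2 lie above the line.

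Gene lists drawn up for the SCN and its surroundings differed widely in how many of their members lay under a domain, against the 9.24% of all protein-coding genes. Of 14 SCN identity transcription factors, 9 had a start site in a domain, including Lhx1, Sox1, Six6, Vax1 (7753 bp), Six3 (6835 bp), Zfhx3 (6270 bp) and Rorb (5456 bp). Of 25 core clock genes, 16 did, led by Bhlhe41 (5759 bp), Per1 (5724 bp) and Bhlhe40 (5603 bp). Arntl, which encodes the clock activator BMAL1, had 4383 bp, and Clock had 3375 bp. Of 37 synapse and excitability genes, 21 did. The widest of them were the genes of the GABA phenotype that SCN neurons share: Gad1 (7093 bp) and Gad2 (6366 bp) for GABA synthesis, and Slc32a1 (7060 bp) for its vesicular transport. Of 10 pan-neuronal markers, 7 lay under a domain. Of 42 chromatin and transcription regulators, 16 did.

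The lists of secreted signals and of other cell types gave lower shares. Of 23 SCN peptide and receptor genes, 7 had a start site in a domain, and these included the receptor genes Drd1 (5876 bp) and Vipr2 (3110 bp), the G-protein signalling regulator Rgs16 (5209 bp) and the secreted precursor Vgf (4119 bp). Vip, Avp, Grp, Nms, Sst and Cck had start sites in no dark interval at all, although Vip and Avp were at 404.1 and 411.3 RPKM in wild-type dark. RPKM counts reads per kilobase of gene, scaled to the library's total, so it can be compared between genes. Of 29 factors of other hypothalamic regions, 7 were under a domain, 4 of them Dlx genes. Of 25 developmental factors of other lineages none was, and 14 of these 25 were at 0 RPKM in wild-type dark.

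Glial and vascular markers were measured as a check on other cells in the tissue. Among them 3 of 12 astrocyte markers (25%), 3 of 14 oligodendrocyte markers (21.4%) and 2 of 10 ependymal markers (20%) had a domain. The share over all protein-coding genes was 9.24%. A domain was found at 0 of 12 microglia and 0 of 12 endothelial and mural markers. The astrocyte gene Sox9 had 4983 bp and the oligodendrocyte genes Cnp and Olig2 had 5435 bp and 4778 bp. The domains thus included genes of glia as well as of neurons. Of 18 housekeeping genes, Gapdh and Sdha had a domain. The lists had been drawn up with earlier results of these data known, so their counts describe the domains and carry no test.

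**Figure D2:**
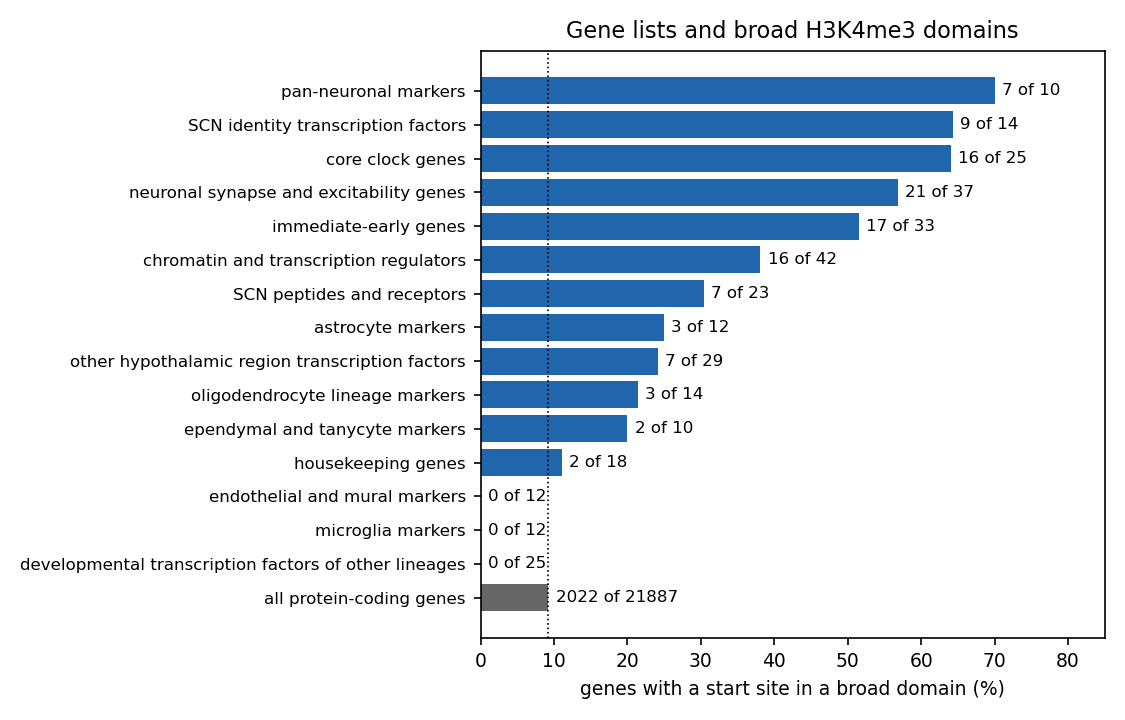
Share of each gene list with a start site in a broad domain (x axis, percent of annotated genes), with the count at each bar. The dotted line and grey bar give all protein-coding genes (9.24%). Every list lies above this share except microglia, endothelial and mural markers and developmental factors of other lineages, each at 0%.

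Some domains held miRNA genes of the nervous system. Of 1005 miRNA hairpins matched from the RefSeq table (GRCm38.p6), 35 lay wholly inside a domain. All 3 loci of miR-9, a brain miRNA that restrains progenitor genes, were among them: Mir9-1 in a domain of 3558 bp, Mir9-2 in one of 5232 bp and Mir9-3 in one of 3508 bp. Mir125b-1 lay in the eighth widest domain (9141 bp in dark, 7493 bp in light), Mir129-2 in one of 7447 bp, Mir7-2 in one of 6791 bp, Mir137 in one of 6595 bp and Mir92b in one of 4837 bp. The mature arms from these loci are printed because they identify the transcripts, with the seed (bases 2 to 8) in capitals.
miR-9-5p: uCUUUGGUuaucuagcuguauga
miR-137-3p: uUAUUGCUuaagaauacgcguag
miR-129-5p: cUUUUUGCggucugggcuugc
miR-7a-5p: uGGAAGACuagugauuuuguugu
miR-125b-5p: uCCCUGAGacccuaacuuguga
miR-92b-3p: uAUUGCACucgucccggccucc
The 6 printed seeds differ from each other, and the 3 miR-9 loci encode the same arm. Mature miRNA levels were not measured.

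After 1 h of light, the widest light interval over a domain was usually shorter than the dark one. The median ratio of light to dark width was 0.9, with quartiles of 0.778 and 0.961. It was below 1 in 1801 domains (89.2%) and above 1 in 213 (10.5%). Dark intervals under 3000 bp that were shared with light had a median ratio of 0.89, and the dark list as a whole covered 1.16 times the bases of the light list. The median ratio was thus close in both classes, but other readings differed. Of the narrower shared intervals 79.1% were narrower in light, and 2678 of 21190 were broken into more than 1 interval, against 902 of 2020 domains. Shared intervals of 2000 to 3000 bp lay between, with 85.7% narrower in light and 1124 of 4796 broken. With 1 library a condition there was no replicate check, and the part of library depth or enrichment in the shorter light intervals was not tested.

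The size of the difference depended on how a light width was read. Measured from the first to the last light interval over a domain, the median ratio was 0.959 and 77% of domains were narrower. Choosing members by a large dark width also favours a smaller light width. When the 1291 light intervals of at least 3000 bp were taken instead, the light interval was narrower in 76% of them, with a median ratio of 0.949. The direction was the same in each of these readings.

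The extremes at both ends were few. A ratio of at least 1.2 was found in 11 domains, and the 5 largest were at Zfp423 (3379 to 4674 bp, ratio 1.38), Herpud2 (3172 to 4292 bp, 1.35), Chd2 (4211 to 5530 bp, 1.31), Zfp516 (5237 to 6843 bp, 1.31) and Arih1 (3152 to 4107 bp, 1.3). A ratio of at most 0.5 was found in 87 domains, and all 87 were broken into pieces in light. The lowest were at Tbx3 (3075 to 513 bp) and Adcy5 (4456 to 750 bp in the widest of 9 pieces). Read from the first to the last light interval, the ratio was 0.979 at Adcy5 and 0.347 at Tbx3. The loss of width at Adcy5 was thus a break-up of the interval, while Tbx3, a factor of the ventral hypothalamus, had a shorter stretch by both readings. Gpr165 and Cdc42ep1 followed with ratios of 0.28 and 0.291 by the widest piece, and 0.697 and 0.866 from first to last. The next was an interval within Snd1 and Lrrc4 that covers no start site, with ratios of 0.294 and 0.94.

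H3K27ac accompanied nearly all domains. It overlapped 94.9% of them in dark and 93.4% in light, against 52.8% and 51.8% of narrower shared intervals. Shared intervals of 2000 to 3000 bp came close to the domains, with 89.2% in dark and 87.5% in light. Of domains of at least 5000 bp, 99% overlapped H3K27ac in dark. Coverage was partial: the median share of a domain's bases under H3K27ac was 35.9% in dark and 34.2% in light. Sox2 was covered over 77.8% of its width in dark and 79.2% in light, Vax1 over 87.1% and 91.5%, and Lhx1 over 13.5% and 14.9%. A wide domain can overlap another interval by its width alone, so these shares are a description.

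Neither H3K27ac list touched 71 domains. They included the domains at Irs4 (5127 bp), Fzd5 (4837 bp), Zfp536 (4819 bp) and Pcdh11x (4617 bp). Irs4 and Pcdh11x lie on the X chromosome, of which male mice have 1 copy. Of 54 X-linked domains, 11 lacked H3K27ac (20.4%), against 60 of 1966 autosomal domains (3.05%). The authors' fold enrichment of H3K4me3 in dark had a median of 24.7 over X-linked and 37.8 over autosomal domains. In light, 64.8% of X-linked and 44.1% of autosomal domains were broken into pieces. The part of the lower X-linked signal in the missing H3K27ac was not tested.

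**Figure D3:**
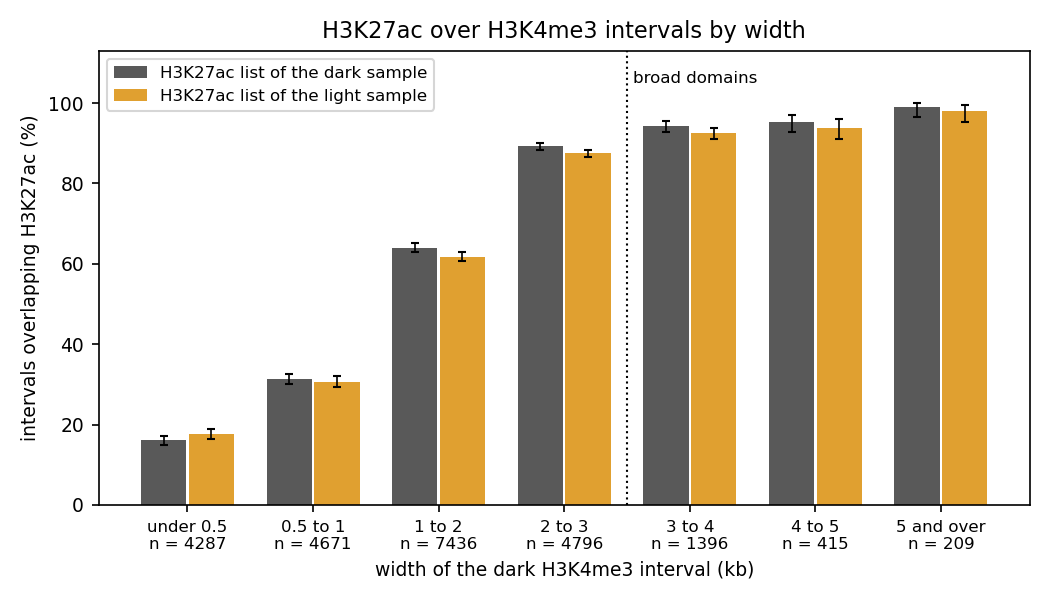
Percent of shared dark H3K4me3 intervals that overlap an H3K27ac interval (y axis), by dark width in kb (x axis) and for the dark (grey) and light (orange) H3K27ac lists. Bars give 1 library each, and error bars are 95% exact binomial intervals over the counted intervals only. The share rises with width and lies between 92.6% and 99% in the 3 classes of broad domains.

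Genes under broad domains had more RNA than other genes. Of the 21999 genes in the RNA tables, 21308 matched the annotation, and 2007 of these had a start site in a domain. Their median in wild-type dark was 14.1 RPKM (quartiles 6.9 and 29.5). It was 7.13 RPKM for 10915 genes in narrower intervals only and 0.00442 RPKM for 8386 genes in none. The median of the domain genes was between 13.9 and 14.4 RPKM in the 3 wild-type dark libraries, and that of the genes in narrower intervals between 6.91 and 7.24 RPKM, so these library medians did not overlap. Single genes did overlap widely between the classes, since the quartiles of the genes in narrower intervals were 2.58 and 16.2 RPKM. In bulk tissue, fewer cells of a type and less RNA per cell cannot be told apart.

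Width added little to the RNA level once an interval was broad. The median was 11.4 RPKM for genes in intervals of 2000 to 3000 bp, 13.8 for 3000 to 4000 bp, 14.8 for 4000 to 5000 bp and 16 for at least 5000 bp. Over the 2007 domain genes, Spearman's rho between width and RPKM was 0.0594. Over all 12922 genes in a dark interval it was 0.449. These are correlations across genes of the same libraries, and genes are not independent replicates.

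The genes of the widest domains therefore spanned a broad range of levels. Sox2 was at 88.6, 105.4 and 98.2 RPKM in the 3 wild-type dark libraries. Lhx1 was at 25.4, 42.6 and 30.8 RPKM, and Six6 at 31.7, 44.0 and 40.7 RPKM. Setd1b, under the second widest domain, was at only 4.1, 4.94 and 4.72 RPKM, and Nfib at 2.72, 3.16 and 2.57 RPKM. The most abundant domain genes were not the widest: Fth1, the ferritin heavy chain, was at 1650.8 RPKM under 3104 bp, and Cst3, the secreted protease inhibitor cystatin C, at 1066.0 RPKM under 4165 bp.

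A few domain genes were nearly silent in dark. Under 1 RPKM in wild-type dark were 46 of 2007 (2.29%), against 14% of genes in narrower intervals and 86.5% of genes in none. Among genes in intervals of 2000 to 3000 bp the share was 4.14%, close to that of domain genes. Meis1 (7109 bp) was at 0.731 RPKM and Myc (4972 bp) at 0.826 RPKM. Hist2h2ab and Snurf were at 0 RPKM, and both share sequence or a transcript with other genes, so their counts are uncertain. The immediate-early genes Egr2 (3479 bp, 0.0308 RPKM) and Fosl1 (3023 bp, 0.0339 RPKM) were also in this group, and after 1 h of light they were at 7.6 and 1.99 RPKM. The strand of Myc and Fosl1 was not known, so either gene end counted as a start. The domain of Fosl1 was also assigned to Ccdc85b, so it may not lie at the start of Fosl1.

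**Figure D4:**
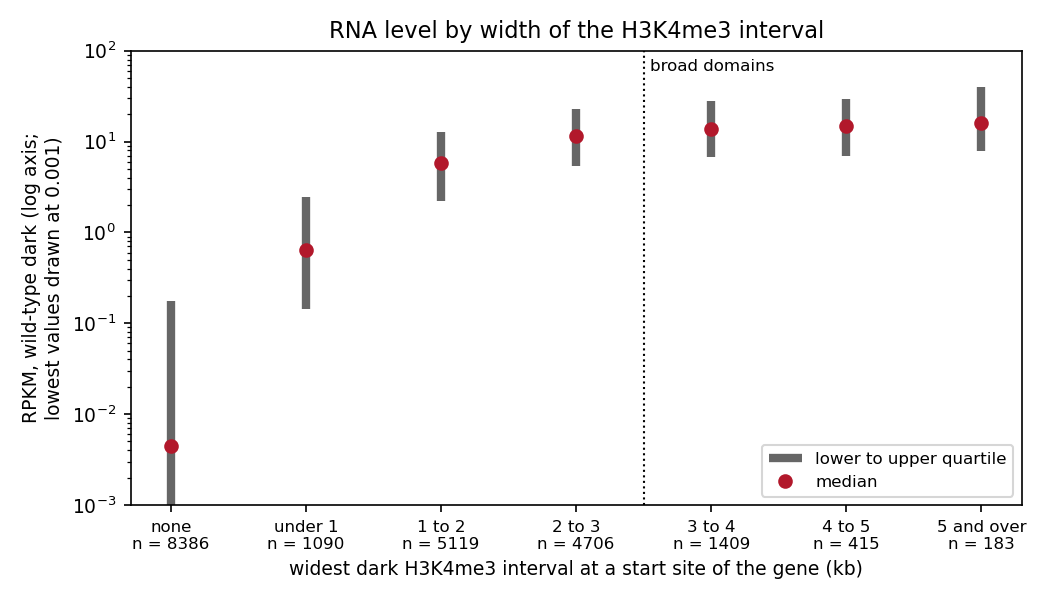
RNA level in wild-type dark (y axis, RPKM, log scale, mean of 3 libraries per gene) by width of the widest dark H3K4me3 interval at a start site (x axis, kb). Points are medians and bars run from the lower to the upper quartile of genes. Levels climb up to about the 2 to 3 kb class, and the 3 classes of broad domains have medians of 13.8 to 16 RPKM.

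Light for 1 h raised the RNA of 99 domain genes in wild-type littermates. Of 1997 domain genes tested, 99 rose (4.96%) and 8 fell (0.401%) in edgeR's quasi-likelihood test at a Benjamini-Hochberg adjusted p of 0.05. Over all 15001 genes tested, 2.23% rose and 0.34% fell. Of genes in narrower intervals, 2.08% rose. The domain genes also had higher counts, with the medians given above, and the part of read number in the larger share was not tested. With the replicate number as a block, 158 domain genes rose and 35 fell, against 3.7% and 1.33% of all genes, and all 107 earlier calls were among them. The median log2 change of the domain genes was 0.009, against -0.012 over all genes tested, so the domain genes as a whole hardly moved. The labels do not say whether libraries of a group were collected separately, so the spread behind each p-value may be technical in part.

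The genes that rose most under domains were immediate-early transcription factors, which neurons switch on within minutes of synaptic input without new protein synthesis. Fos was at 3.56, 3.3 and 3.43 RPKM in dark and at 120.6, 100.3 and 109.5 RPKM in light. All light libraries lay far above all dark ones, and edgeR gave a log2 change of 5.03 ± 0.20 (adjusted p = 2.89e-08). Here and below, ± after a log2 change is an approximate SE derived from the change and edgeR's F statistic. Its family member Fosl2 went from 1.47, 1.27 and 1.22 RPKM to 43.2, 34.2 and 38.5 RPKM, and Junb from 2.9, 3.02 and 2.95 RPKM to 90.7, 75.1 and 83.5 RPKM. Both again had no overlap between dark and light, with log2 changes of 4.90 ± 0.24 and 4.83 ± 0.21. Fosl1 rose by 5.80 ± 0.56 on the log2 scale from levels below 0.05 RPKM.

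The zinc-finger genes Egr1 and Egr2 behaved alike. Egr1 went from 2.12, 1.59 and 1.73 RPKM to 139.1, 124.6 and 136.0 RPKM, a log2 change of 6.23 ± 0.35. Egr2 had the largest fold in this comparison, 7.93 ± 0.39 on the log2 scale, from 0.0331, 0.0188 and 0.0405 RPKM to 8.28, 6.93 and 7.6 RPKM. The nuclear receptor Nr4a3, whose 6568 bp domain was the widest among the immediate-early genes, rose by 3.39 ± 0.26, and the phosphatase gene Dusp4 by 3.38 ± 0.16. Adjusted p-values of these 4 genes in edgeR lay between 7.99e-08 and 4.95e-06.

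Immediate-early genes rose both with and without a domain. Of 33 listed, 17 had a start site in a domain (51.5%, against 9.24% of all protein-coding genes), and all 17 rose, with a median log2 change of 3.05. At least Fosl1 and Egr1 are among the 17 by either gene end, as their strand was not known. Of the 16 others, 14 rose, with a median of 2.85, among them Fosb (7.19, under 2900 bp) and Egr3 (6.29, under 2599 bp). Of these 16 others, 15 lay under a narrower dark interval. In dark, the 17 had a median of 3.27 RPKM, well below the 14.1 RPKM of domain genes. That the list responds to light was known before it was drawn up, so its counts are a description, beside the 4.96% of domain genes and 2.23% of all genes that rose. The difference between the 17 and the 16 was not tested.

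Clock genes and a growth-signalling gene also rose under wide domains. Per1, a light-responsive negative limb gene of the clock, went from 9.12, 8.46 and 8.54 RPKM to 39.4, 37.4 and 38.4 RPKM (log2 change 2.16 ± 0.11, edgeR adjusted p = 1.93e-07). Per2 rose by 1.29 ± 0.09, and Bhlhe40 by 0.79 ± 0.09. Of 16 clock genes under domains, 4 rose, and of 9 others, 0 passed the test, against 4.96% of domain genes and 2.23% of all genes. With the replicate block 4 of the 16 rose, Dbp fell and 1 of the 9 others rose. The difference between these counts was not tested. Irs2, under the third widest domain, went from 16.3, 17.5 and 14.1 RPKM to 46.8, 44.0 and 45.0 RPKM (1.52 ± 0.15, adjusted p = 3.99e-05), and its groups did not overlap. Of 16 genes of the 20 widest domains that could be tested, it was the only one to pass in edgeR, and with the replicate block 2 passed, Irs2 and Sox1.

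Of 9 SCN identity factors under domains, 1 passed the test after 1 h of light in edgeR, and 2 did with the replicate block. All of these rose. Beside them, 4.96% of domain genes and 2.23% of all genes rose, and 7.91% and 3.7% with the block. Rora, a nuclear receptor that is also a clock gene, rose by 1.09 ± 0.19. Sox1 was at 18.4, 24.3 and 21 RPKM in dark and at 27.2, 27.7 and 27.5 RPKM in light, and in this comparison it passed with the block alone (0.39 ± 0.15, edgeR adjusted p = 0.365 without the block and 0.00486 with it). Its groups did not overlap. Six6 had a log2 change of -0.04 ± 0.14, Six3 0.03 ± 0.15 and Vax1 0.35 ± 0.13. Lhx1 was at 24.5, 23.3 and 26.9 RPKM in light, below or near its dark range of 25.4 to 42.6 RPKM (-0.39 ± 0.22, adjusted p = 0.695). A p above the threshold does not show that these levels were equal. Among 60 glial, ependymal and vascular markers, Olig2 was the only one that passed the test (0.40 ± 0.08), beside the 2.23% of all genes that rose.

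The 8 domain genes that fell were led by Hes5 and Fzd8. Hes5, a target of Notch, had the largest drop, -1.29 ± 0.19 on the log2 scale, from a mean of 17 to 6.8 RPKM. Fzd8, a Wnt receptor, fell from a mean of 8 to 3.95 RPKM, and Sox4 changed by -0.62 ± 0.12. Hs3st1, Tfap4, Skida1, Fam84a and Gpr85 changed by -0.58 to -0.29. When 1 library was left out, 2 to 6 domain genes fell, the fewest without light replicate 3. In the light-pulse experiment after 1 h, Hes5, Fzd8 and Hs3st1 fell as well, while Sox4 (0.00 ± 0.14), Fam84a (0.32 ± 0.16), Gpr85 (-0.04 ± 0.07), Tfap4 and Skida1 did not pass.

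Several of the genes that rose most had domains that were wider in light. Of 14 domain genes with a log2 rise of at least 2, 6 had a wider light interval: Fos (4125 to 5223 bp), Fosl2 (4840 to 6102 bp), Egr1 (3719 to 4060 bp), Egr2 (3479 to 3777 bp), Homer1 (3902 to 4187 bp) and Dusp4 (4465 to 4638 bp). Of 22 with a rise of 1 to 2, 4 had one, of 63 with a smaller rise 6, of 8 that fell 0, and of 1890 not called 178 (9.42%). By the widest piece, others with a large rise did not follow: Per1 went from 5724 to 3176 bp and Junb from 3261 to 2550 bp. Both were broken into 2 pieces, which together spanned 5891 bp at Per1 and 3855 bp at Junb, more than in dark. Read from the first to the last light interval, 9 of the 14 were wider in light, against 20.8% of the genes not called. The widths come from 1 library a condition and also chose the members, so no test was made.

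**Figure D5:**
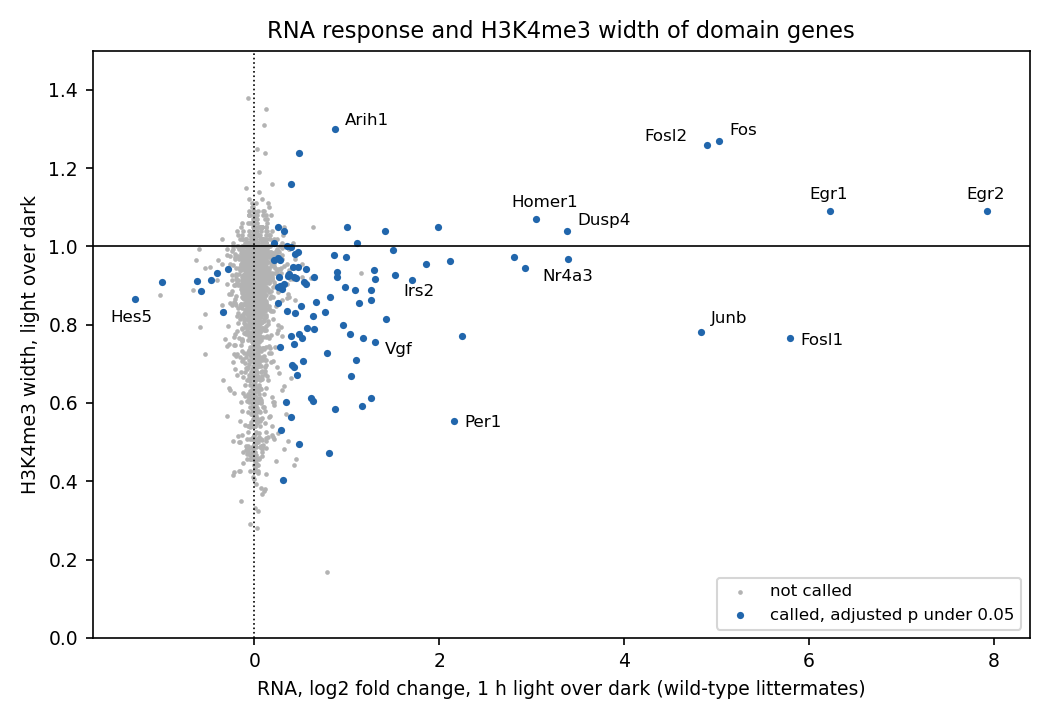
RNA log2 fold change after 1 h of light in wild-type littermates (x axis) against the ratio of light to dark H3K4me3 width (y axis) for 1997 domain genes tested. Blue points passed the edgeR test and grey points did not. Most points lie below a ratio of 1, while Fos, Fosl2, Egr1, Egr2, Homer1 and Dusp4 lie above it and Per1, Junb and Fosl1 below it.

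H3K27ac was compared at the same early genes. Of the 17 immediate-early genes with a domain, 6 had a wider H3K4me3 interval in light. The share of the domain under H3K27ac was larger in light at 12 and smaller at 4, and Egr2 had no H3K27ac interval in either list. Over all domains the share was larger in light in 45.8%. At Fos it was 41.7% in dark and 58.3% in light, at Fosl2 42.9% and 61.7%, at Junb 42.0% and 69.7%, and at Dusp4 33.2% and 76.1%. Per2 went from 24.9% to 73.0%. The neuropeptide precursor gene Vgf, with no H3K27ac interval in its domain in dark, had 6 in light that covered 37.4%. At the domain assigned to both Fosl1 and Ccdc85b the share went from 43.5% to 32.8%. These shares also rest on 1 library a condition.

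The light-pulse experiment gave the same leading genes after 1 h. Against CT17 dark, 154 of 1989 domain genes rose (7.74%) and 74 fell (3.72%) with the labelled batch in the edgeR fit, against 4.39% and 3.99% of all 14524 genes. Libraries with the suffix s in their label hold more reads than the others and are found in the CT17 dark and 0.5 h groups. In those groups the libraries labelled batch 2 are exactly those with the suffix. Both 1 h light libraries are batch 2 without the suffix. In the batch fit, part of the light effect therefore cannot be told apart from what goes with the suffix. With that suffix as the term in place of batch, 57 domain genes rose and 8 fell, against 1.11% and 0.158% of all genes, and 61 of the 228 earlier calls were among them. Without CT17 dark replicate 1s or 2s the batch fit called 98 and 110 domain genes, and without light replicate 1 or 2 it called 49 and 106. Egr2 changed by 6.11 ± 0.24 on the log2 scale, Egr1 by 4.78 ± 0.16, Junb by 4.52 ± 0.14, Fos by 4.47 ± 0.14 and Fosl2 by 4.18 ± 0.13. These 5 also led with the suffix term.

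Mean RPKM over the pulse showed when each gene was high. Fos was at 2.94 in CT17 dark, 93.1 after 0.5 h, 61.1 after 1 h, 12.5 after 3 h and 6.38 after 6 h. Egr1 followed the same course, with 3.57, 118.4, 104.9, 11.0 and 5.28 RPKM. Fosl2 was highest at 1 h, with 1.12, 6.46, 19.2, 6.76 and 2.82 RPKM. Fosl1 was highest at 3 h (1.74 RPKM). Vgf and Per2 were higher late, with Vgf at 45.6, 54.8, 95.6, 173.9 and 185.9 RPKM and Per2 at 9.62, 9.85, 15.5, 20.4 and 20.1 RPKM. Differences between successive times were not tested here.

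After 6 h of light, fewer domain genes differed from the CT23 dark group. Of 1989 tested, 24 rose (1.21%) and 7 fell (0.352%) in edgeR, against 0.723% and 0.282% of all genes. CT23 dark replicate 1 is labelled batch 1, and CT23 dark replicate 2 and both 6 h libraries batch 2. None of them has the suffix, although the batch term rests largely on libraries that do. Vgf rose from 50.5 and 48.1 RPKM to 174.6 and 197.2 RPKM (log2 change 2.05 ± 0.17, adjusted p = 1.3e-05). Per2 rose by 1.44 ± 0.10 and Rora by 1.29 ± 0.13. Junb rose by 1.43 ± 0.22, but not without light replicate 2 (adjusted p = 0.0554). Pcdhgc5 rose by 1.05 ± 0.11, but not with no batch term (adjusted p = 0.0785), and it shares exons with the other gamma protocadherins, so its count is uncertain. Lhx1, under the sixth widest domain, was at 27.9 and 21.5 RPKM in CT23 dark and at 14.9 and 14.3 RPKM after 6 h of light (-0.88 ± 0.18, adjusted p = 0.0255). Its call was lost when CT23 dark replicate 1 or either light library was left out, and with no batch term (adjusted p of 0.0965 to 0.183). The number of domain genes called, 31 in all, was 127 without CT23 dark replicate 2, and 9 and 19 without light replicates 1 and 2.

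The Npas4-/- mice were not tested here, and 3 of the light-induced domain genes are given by their levels. Fos was at 9.27 ± 1.27 RPKM in dark and 80.6 ± 19.9 in light (mean ± SD, n = 3), beside 3.43 ± 0.128 and 110.1 ± 10.1 in wild-type littermates. Vgf was at 103.7 ± 6.75 RPKM in dark and 190.7 ± 33.7 in light, beside 53.6 ± 6.58 and 130.0 ± 8.13. Gadd45g was at 33.2, 51.1 and 51.7 RPKM in null dark and 47, 50.8 and 55.6 RPKM in null light, so its null groups overlapped, while in wild type it was at 31.9 ± 3.98 and 70 ± 12.6. Genotypes were not tested against each other here. The median of all domain genes was 13.7 to 14.3 RPKM in the 3 null dark libraries and 14.2 to 14.5 RPKM in the 3 null light libraries.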

How the data were processed

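SCN tissue was profiled by ChIP-seq for H3K4me3 and H3K27ac (1 sample a condition) and by bulk RNA-seq. Per the submitters' processing notes, the series used BWA 0.7.16a, MACS2 2.1.1, HOMER 4.9.1, bedtools 2.25.0, STAR 2.5.2b and 2.7.1a, HTSeq 0.9.1, featureCounts 1.6.2 and build mm10. Which tool made which file is not given in the sources used here. The authors deposited 1 peak list per mark and condition, with a fold enrichment (a ratio) and a -log10 q-value per peak, the lowest 2.03 in dark H3K4me3. The fold is the authors' and is used only within a list. The authors deposited whole-number read counts and RPKM per gene for 28 libraries, and every column belongs to a library. Counts were between 12477382 and 15369985 per light-pulse library without the suffix s, 27413860 and 30149286 with it, and 26638939 and 32097975 in the Npas4 experiment. Whether reads were counted by strand is not given in the sources used here, so overlapping genes are uncertain.

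Identical intervals were counted once, and overlap needed 1 bp. Light width is the widest overlapping light interval. Start sites came from RefSeq GRCm38.p6, which shares the mm10 coordinates. For 637 domain genes without a strand in the promoter table either gene end was used. Promoter and miRNA sequences of chromosome 18 were not used here. Symbols matched 20491 genes of the RNA tables and synonyms 817.

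The test was edgeR's quasi-likelihood F-test (version 4.0.16, R 4.3.3) on the counts after TMM and filterByExpr, 1 fit per experiment, with batch as a term in the light-pulse fit. P-values were adjusted by Benjamini-Hochberg over all genes tested. The test gives no SE, so the approximate SE of a log2 change is its absolute value divided by the square root of F. On simulated counts the fits recovered 94%, 89% and 79.5% of changed genes for the wild-type, 1 h and 6 h comparisons. Of the genes called there, 5.5%, 5.3% and 7.0% had not been changed. The simulated counts had the same spread setting for every gene and no batch or suffix effect, and only well-counted genes were changed. These rates therefore do not carry over to the real counts. In the Npas4 experiment same-numbered libraries deviated together (correlations of 0.198, 0.249 and 0.264), so the blocked values are given where they change a count.

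Named genes are those at the 20 widest domains, the 8 with the largest called change per comparison, up to 6 per gene list by width and those at the 5 domains that gained or lost most width. Genes outside these rules were named after their values were seen. The members, gene lists and tests were chosen with earlier results of these data known. The 18 single-nucleus samples and the ChIP inputs were not used here.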

Additional observations from a re-analysis of the deposited data

Results flagged for a closer look

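In 30 groups of 4 light-pulse libraries examined (the called domain genes named above and the median of all domain genes, in CT17 dark and after 0.5 h of light), 1 library stood apart. Rora was at 9.55 RPKM in the 0.5 h light replicate 1, while the other 3 libraries of that group were at 7.53 to 7.83 RPKM. Chance sets apart about 1 in 20 such groups.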

How the results depend on the processing

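Another width minimum gave 3850 domains at 2500 bp, 624 at 4000 bp and 209 at 5000 bp, while a stricter q-value, merging and reciprocal overlap stayed within 1.5 times of 2020. Light intervals were narrower under each reading of width. The share narrower was 84.8% (median ratio 0.939) with summed light widths, 76% (0.949) for members chosen by light width, 85.6% (0.924) with gaps of up to 500 bp merged, 77% (0.959) from first to last light interval, a reading added after seeing the data, and 87.7% from 2500 bp, and the ratio was 0.911 from 5000 bp. H3K27ac covered at least 50% of the domain in 23.7% of domains in dark and 24% in light. It overlapped 93% and 86.5% with a -log10 q-value of at least 5, 96.5% and 95.2% of domains from 4000 bp, and 99% and 98.1% from 5000 bp. The median RPKM of domain genes was 13.3 from 2500 bp, 15 from 4000 bp and 16 from 5000 bp. The lists held 103 distinct genes with a start site in a domain, and 118 with any overlap of the gene.

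For wild-type littermates after 1 h of light, 107 domain genes were called, 193 with the replicate block, 40 under domains from 4000 bp, and 78 to 106 when each library was left out. For the 1 h light pulse, 228 were called, 65 with the suffix term, 61 with no batch term, 75 from 4000 bp, and 49 to 250 when each library was left out. For the 6 h pulse, 31 were called, 61 with DESeq2, 14 from 4000 bp, and 9 to 127 when each library was left out. Domains from 4000 bp hold fewer genes. The other causes were not tested. With the replicate number as a block the light-pulse counts were 425 after 1 h and 47 after 6 h, but in that experiment 2 libraries share a number and nothing more is known of the pairing. The 8 genes named for each 1 h comparison passed the test under every alternative run, and 5 of the 8 named for 6 h lost it under at least 1. One library a list limits all statements on width and H3K27ac.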
